A study of Mus musculus with 2 samples.

Results

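Smad1, Smad2, Smad3, Smad4 and Smad5 are the intracellular mediators of TGF-β and bone morphogenetic protein (BMP) signaling described here. Their binding regions were taken from lists of Etv4 and Etv5 ChIP-seq regions as all regions inside each gene or within 50 kb of either end, which gave 9 of 13636 Etv4 regions and 4 of 8297 Etv5 regions. Counted in this way, Smad3 had 8 of the Etv4 and 3 of the Etv5 regions, Smad5 had 1 of each, and Smad1, Smad2 and Smad4 had none. Inside the genes there were 8 Etv4 and 2 Etv5 regions, all in Smad3.

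Etv4 and Etv5 are related ETS family transcription factors that recognise DNA with a GGAA core. Both libraries came from EpRas cells, which are H-Ras-transformed EpH4 mouse mammary epithelial cells, and which received TGF-β3 at 1 ng/ml for 1.5 h before they were fixed. ChIP-seq sequences the DNA that an antibody pulls down with its protein. The Etv4 antibody was a rabbit polyclonal and the Etv5 antibody a mouse monoclonal, with 1 library each, so no difference could be set against a spread between replicates and none was tested. EpRas is a single transformed line, and untreated cells, parental EpH4 cells and control precipitations were not analysed here. The lists give positions without read counts, so the depth is unknown.

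Receptors of the TGF-β family are serine/threonine kinases that phosphorylate receptor-activated Smads. Smad2 and Smad3 carry signals from TGF-β and activin receptors, and Smad1 and Smad5 mainly carry those of BMP receptors. Each then forms complexes with Smad4, the common partner, and enters the nucleus. Smad3 and Smad4 contact DNA directly but weakly, and other transcription factors, AP-1, RUNX and ETS proteins among them, are known partners on chromatin. Smad2, Smad3 and Smad4 take part in the epithelial-mesenchymal transition that TGF-β induces in mammary epithelium.

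The sequences that the results turn on are given first, as the plus strand of GRCm38.p6 (RefSeq assembly, the same coordinates as mm10) in the 5′ to 3′ direction. Capitals mark matches to 3 patterns searched on both strands: ETS (CCGGAAGT or CAGGAAGT), AP-1 (TGACTCA or TGAGTCA) and RUNX (TGTGGTT or TGTGGTC). The following 3 stretches of 300 bp are the middle parts of the sequence covered by both an Etv4 and an Etv5 region. In the first, at chr9:63721806-63722105 in the first intron of Smad3, an ETS and an AP-1 match ran into one another. The next, at chr9:63726492-63726791 in the same intron, held 2 RUNX matches and no ETS or AP-1 match. The last, at chr13:56664535-56664834 upstream of Smad5, held no match to any of the 3 patterns.
Smad3 shared region with ETS and AP-1: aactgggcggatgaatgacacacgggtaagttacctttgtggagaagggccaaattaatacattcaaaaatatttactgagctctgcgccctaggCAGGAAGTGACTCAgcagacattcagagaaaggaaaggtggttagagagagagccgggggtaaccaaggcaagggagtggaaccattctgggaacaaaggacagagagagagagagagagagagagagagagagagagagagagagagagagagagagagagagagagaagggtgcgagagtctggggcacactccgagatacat
Smad3 shared region with RUNX: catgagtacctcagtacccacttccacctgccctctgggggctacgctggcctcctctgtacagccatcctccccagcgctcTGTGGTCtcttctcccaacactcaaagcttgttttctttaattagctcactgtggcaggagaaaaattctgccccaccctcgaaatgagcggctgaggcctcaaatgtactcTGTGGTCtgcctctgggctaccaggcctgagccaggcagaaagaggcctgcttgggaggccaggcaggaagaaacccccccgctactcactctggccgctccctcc
Smad5 upstream shared region: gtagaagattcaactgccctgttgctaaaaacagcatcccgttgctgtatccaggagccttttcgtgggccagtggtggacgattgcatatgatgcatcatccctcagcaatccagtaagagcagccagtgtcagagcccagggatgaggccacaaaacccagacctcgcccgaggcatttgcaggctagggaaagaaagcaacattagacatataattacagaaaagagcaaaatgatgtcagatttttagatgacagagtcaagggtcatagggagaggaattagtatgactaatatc

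The remaining sequences come from Smad3 regions of the Etv4 list alone and run from 50 bp before the first to 50 bp after the last ETS or AP-1 match of the region. The stretch at chr9:63706421-63706643 carried the only match to the ETS pattern outside the shared regions. Those at chr9:63744005-63744111 and chr9:63747829-63747935 carried an AP-1 match each, lay closest to the annotated start of Smad3, and were chosen after their values were seen.
Smad3 region 51.3 kb from the gene start: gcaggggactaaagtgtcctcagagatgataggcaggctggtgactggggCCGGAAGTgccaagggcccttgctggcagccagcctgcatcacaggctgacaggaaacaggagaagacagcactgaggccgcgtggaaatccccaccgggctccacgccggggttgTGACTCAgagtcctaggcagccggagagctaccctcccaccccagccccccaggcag
Smad3 region 13.87 kb from the gene start: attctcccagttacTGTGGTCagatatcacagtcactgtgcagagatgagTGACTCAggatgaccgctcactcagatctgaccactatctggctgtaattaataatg
Smad3 region 10.14 kb from the gene start: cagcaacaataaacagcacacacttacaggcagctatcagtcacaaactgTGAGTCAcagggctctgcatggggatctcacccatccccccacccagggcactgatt

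The windows were compared to determine which Smad genes had Etv4 or Etv5 regions. Among the 5 genes, 2 had at least 1 Etv4 region in the window, namely Smad3 and Smad5, compared with 53.4% of 21938 protein-coding genes. The same 2 genes had an Etv5 region, compared with 42.7% of protein-coding genes. Inside the gene, 1 of the 5 had a region of either list, which was Smad3 both times; the shares of protein-coding genes were 23.0% for Etv4 and 14.7% for Etv5. Long genes collect more regions, and among the 4033 protein-coding genes between 39.4 and 111 kb long, the range of the 5 genes, 57.9% had an Etv4 region in the window and 30.0% inside the gene. The corresponding Etv5 shares were 45.5% and 20.8%. With 5 genes, counts of 2 and 1 cannot be told apart from these shares.

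**Figure D1:**
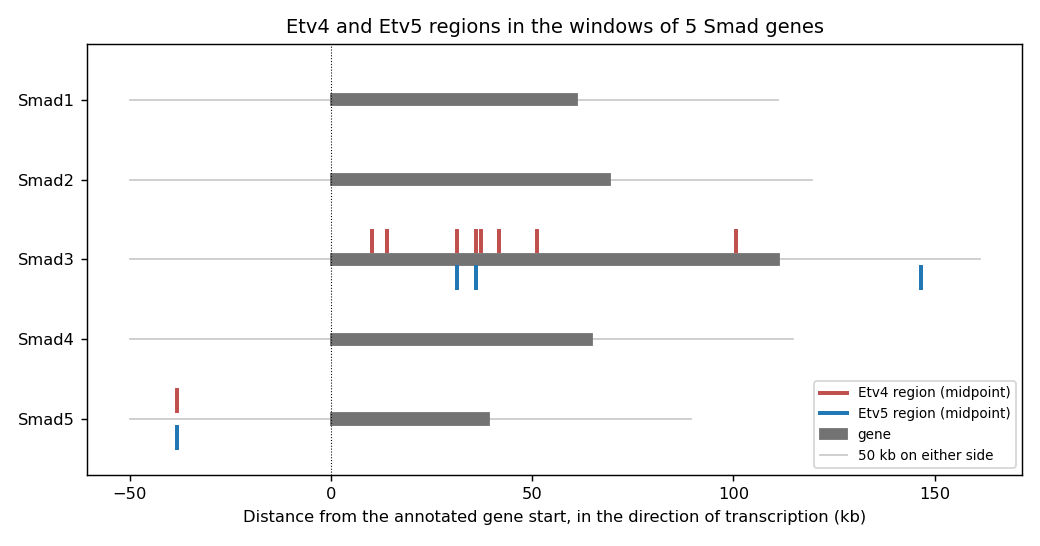
Etv4 regions (red ticks above each gene) and Etv5 regions (blue ticks below) in the windows of the 5 Smad genes, drawn by distance from the annotated gene start in kb along the direction of transcription; grey bars are the genes and thin lines the 50 kb on either side. The ticks cluster inside Smad3, 1 of each list lies 38.3 kb upstream of Smad5, and the windows of Smad1, Smad2 and Smad4 are empty.

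Smad3, the TGF-β and activin mediator that binds DNA directly, lies on the minus strand of chromosome 9 at chr9:63646767-63757994 (ENSMUSG00000032402) and is 111 kb long. It held 8 Etv4 and 2 Etv5 regions, and another Etv5 region lay beyond its 3′ end. Per 100 kb, Smad3 contained 7.19 Etv4 regions, compared with 0.475 on chromosome 9 as a whole and 0.5 over the nuclear assembly. For Etv5 the density was 1.8 per 100 kb, compared with 0.264 on chromosome 9 and 0.304 over the assembly. Etv4 regions covered 4.05% of Smad3 and 0.328% of the nuclear assembly, while Etv5 regions covered 0.856% and 0.17%.

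Only 61 of 21938 protein-coding genes (0.278%) had 8 or more Etv4 regions inside them. Among 565 protein-coding genes within 10% of the length of Smad3, 5 had 8 or more, the median was 0, the highest count was 10, and 360 genes (63.7%) had none. The other 4 of these genes, named after their values were seen, were Nrp2 with 10 regions, Col18a1 and Ets1 with 9 each, and Wwtr1 with 8. Nrp2 encodes a co-receptor of semaphorins and vascular endothelial growth factors, Col18a1 a basement membrane collagen, Ets1 another ETS factor and Wwtr1 the coactivator TAZ. The Etv5 count of Smad3 was more common, since 777 genes (3.54%) and 64 of the 565 genes of similar length (11.3%) had 2 or more Etv5 regions inside. Thus the position of Smad3 among genes was far toward the upper end for Etv4 and less so for Etv5. The difference between the lists was not tested, and the Etv4 list is longer (13636 compared with 8297 regions). With the lists cut to equal numbers of regions, Smad3 held 6 Etv4 and 2 Etv5 regions inside the gene.

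**Figure D2:**
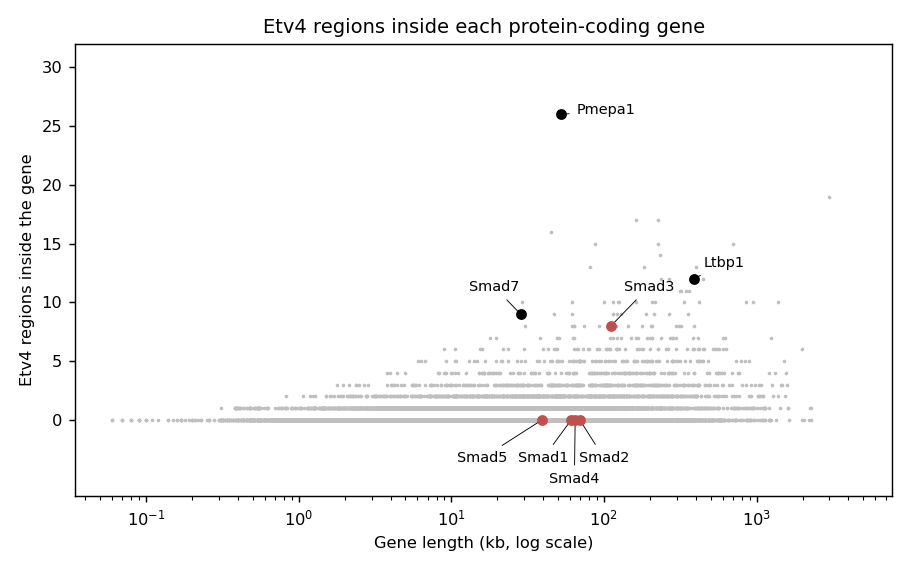
Number of Etv4 regions inside each protein-coding gene against gene length in kb (log scale); red points are the 5 Smad genes, black points Smad7, Pmepa1 and Ltbp1, and grey points all other genes. Smad3 with 8 regions lies above nearly all genes of its length, the other 4 Smad genes lie at 0, and 1 gene with 95 regions (Gm20388) is above the range drawn.

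The layout of the regions along Smad3 was then described. The first intron of Smad3-201, the transcript that starts at the annotated gene start and has 9 exons, spans 89.5 kb or 80.5% of the gene and held 7 of the 8 Etv4 regions and both Etv5 regions, counts that cannot be told apart from its share of the gene. The remaining Etv4 region was in intron 5. None of the regions touched an exon. The first region from the gene start lay 10.14 kb inside the gene, and the gaps between successive Etv4 midpoints were then 3.73, 17.5, 4.59, 1.26, 4.58, 9.55 and 49.4 kb. Thus 4 Etv4 regions, at 31.34, 35.92, 37.18 and 41.76 kb from the start, formed the densest stretch, and both Etv5 regions inside the gene, at 31.39 and 36.1 kb, were in it.

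**Figure D3:**
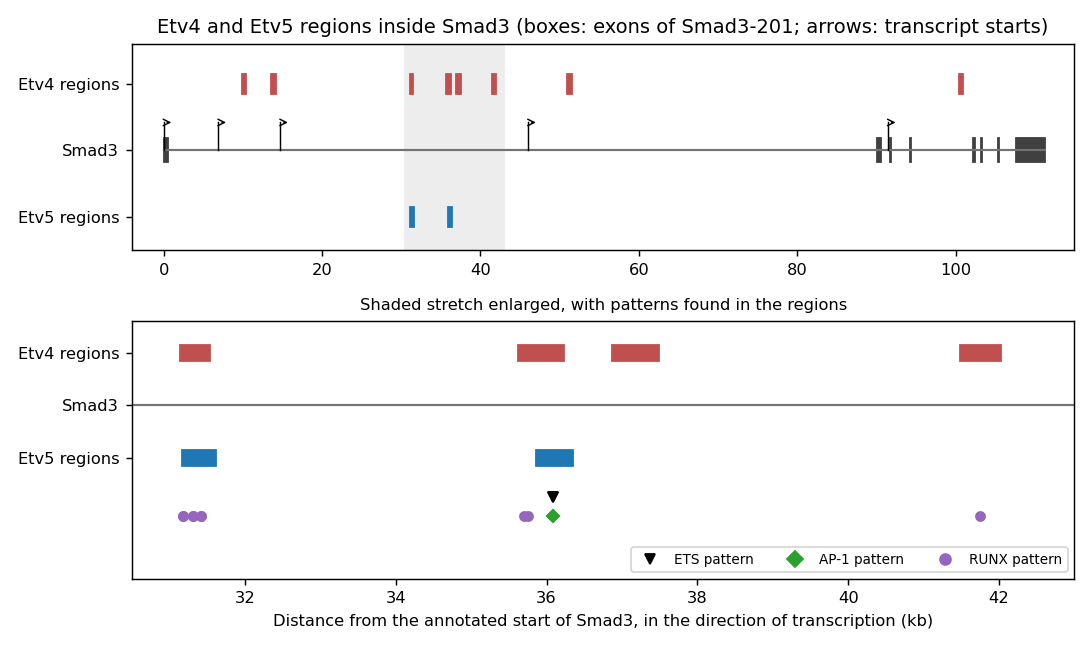
Regions of Smad3 by distance from its annotated start in kb, with Etv4 above the gene line and Etv5 below; dark boxes are exons of Smad3-201, arrows are annotated transcript starts, and the lower panel enlarges the shaded stretch and adds the ETS, AP-1 and RUNX matches found in the regions. Of the 8 Etv4 regions, 7 lie in the long first intron, and the only ETS match of the enlarged stretch falls at the same place as its only AP-1 match, where an Etv4 and an Etv5 region overlap.

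The region at chr9:63721769-63722375 of the Etv4 list (607 bp) and that at chr9:63721641-63722141 of the Etv5 list (501 bp) shared 373 bp, which is 61.4% of the former and 74.5% of the latter. Their midpoints were 181 bp apart. Both held the same 14-bp run, CAGGAAGTGACTCA at chr9:63721901-63721914, in which the ETS match CAGGAAGT at 63721901 to 63721908 and the AP-1 match TGACTCA at 63721908 to 63721914 share a base. ETS and AP-1 proteins are known to bind such composite elements together in Ras-responsive genes. The centre of this run was 16 bp from the midpoint of the Etv5 region and 165 bp from that of the Etv4 region. After this run was seen, composite ETS/AP-1 sites of the same form, with either base at the variable positions of both patterns, were counted in all regions. They occurred in 17 of 13630 Etv4 windows of 500 bp around the midpoint (0.125%) and 7 of 8289 Etv5 windows (0.0844%). Among 5294579 windows of 500 bp laid end to end over the nuclear assembly, 151 (0.00285%) held one, and among 21930 windows at starts of protein-coding genes, 1 did. All 23 of the 36-bp sequences that contain the composite site of Smad3 occurred once in the assembly, although 8.57% of 36-bp sequences of the Etv4 region and 10.5% of those of the Etv5 region occurred more than once. The printed stretch also contains a long run of alternating g and a after the site.

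The other shared pair was chr9:63726457-63726862 of the Etv4 list (406 bp) and chr9:63726375-63726825 of the Etv5 list (451 bp). It shared 369 bp, or 90.9% and 81.8% of the regions, with midpoints 59 bp apart. Both contained 3 RUNX matches, of which the printed stretch holds 2. By its number this Etv4 region was near the end of the list, at 11436 of 13636, and the Etv5 region was at 6356 of 8297.

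Transcript starts were examined next, because Smad3 has 5 annotated transcripts. No region of either list had its midpoint within 2 kb of the annotated start of any of the 5 Smad genes. The share of all protein-coding genes was not counted for gene starts alone. When the starts of all annotated transcripts were used, 1 of the 5 genes, Smad3, had an Etv4 region within 2 kb, compared with 17.9% of protein-coding genes, and 0 of the 5 had an Etv5 region there, compared with 10.6%. With 5 genes, counts of 1 and 0 cannot be told apart from these shares. The Etv4 region was chr9:63743792-63744461 (670 bp), whose midpoint was 0.861 kb upstream of the start of Smad3-203, a transcript annotated without a coding sequence, and 13.87 kb inside the gene. It had number 2965, the lowest of the Smad3 regions, and carried 1 AP-1 and 2 RUNX matches. The Etv4 region at chr9:63747646-63748069 (424 bp) had its midpoint 3.22 kb downstream of the start of the coding transcript Smad3-202, and its AP-1 match TGAGTCA was 25 bp from the midpoint.

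Like these 2 regions, the other 4 Etv4 regions of Smad3 overlapped no Etv5 region. The one at chr9:63706376-63707008 (633 bp), 51.3 kb from the gene start, held the strict ETS match CCGGAAGT at 63706471 to 63706478 and an AP-1 match at 63706587 to 63706593, and these were separate, as the printed stretch shows. The region at chr9:63715968-63716508 (541 bp) had a RUNX match 15 bp from its midpoint and lay 4.27 kb upstream of the start of Smad3-205. Those at chr9:63720501-63721130 (630 bp) and chr9:63657033-63657630 (598 bp, in intron 5) held none of the 3 patterns. The remaining Etv5 region of the window, chr9:63611154-63611626 (473 bp), was 35.1 kb beyond the 3′ end of Smad3, in an intron of Aagab and 8.73 kb from the start of that gene, and it overlapped no Etv4 region. Aagab encodes a protein of clathrin adaptor trafficking. Position alone does not assign the region to one of the neighbouring genes.

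Smad5, a BMP-activated Smad, is on the plus strand at chr13:56703010-56742377 (ENSMUSG00000021540, 39.4 kb) and held no region inside the gene. Its only regions were a shared pair in intergenic sequence, chr13:56664260-56665108 of the Etv4 list (849 bp) and chr13:56664164-56665169 of the Etv5 list (1006 bp), with midpoints 38.33 and 38.34 kb upstream of the gene start. The Etv4 region was wholly contained in the Etv5 region, and the midpoints were 18 bp apart. The nearest protein-coding gene start was that of Smad5, while the gene on the other side, Tgfbi, which encodes a TGF-β-induced matrix protein, ended 24.7 kb from the Etv4 region. That region was 37.9 kb from Smad5, and position alone does not assign the pair to either gene. The regions of this pair were the longest in the windows of both lists. The Etv5 region was number 290 of 8297, and 3.62% of Etv5 regions were as long or longer. The Etv4 region was number 1755 of 13636, and 18.6% were as long or longer. Neither held an ETS, AP-1 or RUNX match in the 500 bp around its midpoint.

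The other 3 genes had no region of either list in their windows. For Smad4, the common partner, which is on the minus strand at chr18:73639009-73703780 (ENSMUSG00000024515, 64.8 kb), the nearest Etv4 region was 66.5 kb and the nearest Etv5 region 88.4 kb downstream. Within 100 kb of the 5 genes, the other regions past the limit of 50 kb were Etv4 regions 81.1 kb from Smad3 and 96.7 kb from Smad4. Those outside the genes but within the limit were the Smad5 pair, 37.9 kb (Etv4) and 37.8 kb (Etv5) from the gene, and the Etv5 region in Aagab, 35.1 kb from Smad3. For Smad1, a BMP-activated Smad on the minus strand at chr8:79338395-79399518 (ENSMUSG00000031681, 61.1 kb), the nearest regions were 110 kb (Etv4) and 129 kb (Etv5) downstream. For Smad2, the mediator most similar to Smad3, on the plus strand at chr18:76241580-76310963 (ENSMUSG00000024563, 69.4 kb), they were 380 kb (Etv4) and 241 kb (Etv5) upstream. Empty windows were common among genes of the same length within 10%. No Etv4 region was found for 39.8% of 826 genes of the length of Smad1, 44.1% of 735 of the length of Smad2 and 41.1% of 805 of the length of Smad4. For Etv5 the shares were 52.5%, 55.5% and 53.2%. Thus Smad2 and Smad3, which share their upstream receptors, differed by 8 Etv4 regions, and a missing region says only that none was called at the unknown depth of these libraries.

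The place of each region in its list was then compared. The lists give every region the same score, and the only other value is a region number whose criterion is not stated. A low number therefore cannot be read as strong binding. The Etv4 regions of Smad3 had numbers from 2965 to 11436, so that between 21.7 and 83.9% of the list came at or before them. Their lengths were between 406 and 670 bp, and the median of the 9 Etv4 regions in the windows was 607 bp compared with 589 bp for the whole list. For Etv5, the 3 regions in the window of Smad3 came at 51.9, 66.4 and 76.6% of the list, in its later part, and the median of the 4 regions was 487 bp compared with 532 bp for the list. In the first 50% of each list by number, the window of Smad3 kept 4 of its 8 Etv4 regions and 0 of its 3 Etv5 regions, and in the longer 50% it kept 5 and 0. The Smad5 pair was in the first and in the longer 50% of both lists. Thus Smad3 had many regions of ordinary length, while the window of Smad5 had a single intergenic pair with low numbers in both lists, at 3.5% for Etv5 and 12.9% for Etv4.

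**Figure D4:**
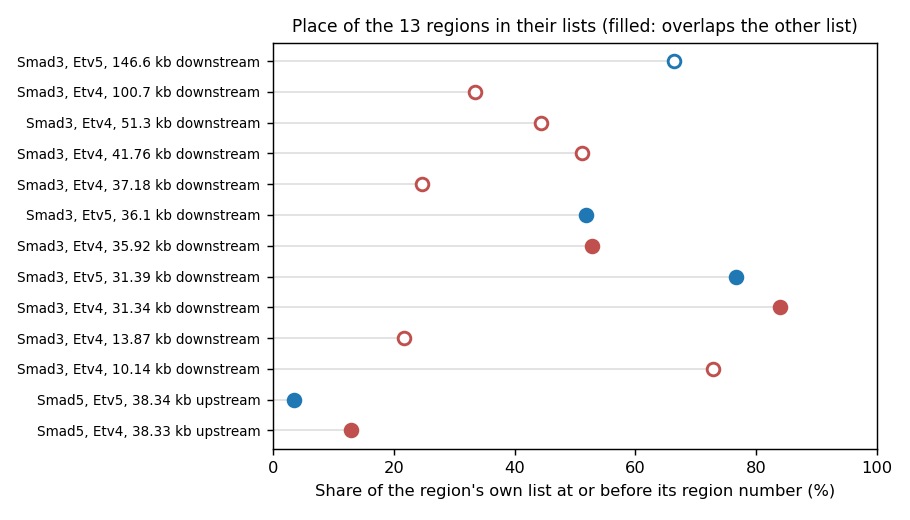
Place of each of the 13 regions in its own list, as the percentage of the list at or before its region number; red is Etv4, blue is Etv5, filled points overlap a region of the other list, and labels give the gene and the distance from its start. The Smad5 pair lies at 3.5 and 12.9%, and the Smad3 regions lie between 21.7 and 83.9%.

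The lists were also compared with each other at these genes. Of the 9 Etv4 regions, 3 overlapped an Etv5 region (33.3%, exact Clopper-Pearson 95% interval 7.49 to 70.1%), and 37.8% of the whole Etv4 list did. Of the 4 Etv5 regions, 3 overlapped an Etv4 region (75.0%, interval 19.4 to 99.4%), compared with 63.2% of the whole Etv5 list. Inside Smad3 the counts were 2 of 8 (25.0%, interval 3.19 to 65.1%) for Etv4 and 2 of 2 (interval 15.8 to 100%) for Etv5. The intervals contain the shares of the whole lists. They cover counting error only and treat neighbouring regions as independent.

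Among the 9 Etv4 regions, 2 held an ETS match in the 500 bp around the midpoint, and 1 of the 4 Etv5 regions did, which was the composite site. The shares of the whole lists were 10.2% for Etv4 and 7.93% for Etv5, with 10.2% of windows at gene starts and 3.6% of windows over the assembly. An AP-1 match was found in 4 of the 9 Etv4 regions and 1 of the 4 Etv5 regions, compared with 37.4 and 35.8% of the lists, 6.42% of gene starts and 7.67% of windows over the assembly. RUNX matches occurred in 4 of 9 and 2 of 4 regions, compared with 24.7 and 23.9% of the lists, 13.2% of gene starts and 16.9% of windows over the assembly. The Smad-binding patterns GTCTAGAC and GGCGCC were found in none of the 13 regions; the former was in 0.785 and 0.76% of the lists and 0.384% of windows over the assembly, and the latter in 9.9 and 8.51% of the lists, 23.6% of gene starts and 1.3% of these windows. Such matches describe the letters only, and these counts are too small to be told apart from the shares of the lists. At the annotated starts of the 5 genes, the 500-bp windows had a GC content between 65.0 and 77.6%. They held no ETS match, 1 AP-1 match at Smad1 and 1 RUNX match at Smad4, and each held at least 1 GGCGCC, a GC-only pattern.

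The 5 genes were finally set beside 32 other genes of the pathway. Of these, 19 had an Etv4 region in the window (median 1 region), where 53.4% of all protein-coding genes had one (median 1). An Etv5 region was found for 16 of the 32 (median 0.5), compared with 42.7% of all protein-coding genes (median 0). Counts over 32 genes are close to these shares. The counts for single genes that follow include the 50 kb on either side, unless stated otherwise. The inhibitory Smads differed, since Smad7 had 18 Etv4 and 5 Etv5 regions and Smad6, which lies 195 kb from Smad3, had 2 of each, all outside the gene. Smad9, a BMP-activated Smad that is not among the 5 genes, had none of either. Pmepa1, an inhibitor that sequesters receptor-activated Smads, had 30 Etv4 and 6 Etv5 regions. Of the ubiquitin ligases that act on Smads and receptors, Smurf1 had 7 and 5, Smurf2 8 and 4, Nedd4l 3 and 3, and Wwp1 none. The corepressor genes Ski and Skil had 3 and 2, and 1 and 2, respectively. Tgif1 had 5 and 1, and Tgif2 had none. Among the receptors, Tgfbr1 and Tgfbr2 each had 3 Etv4 regions and 1 Etv5 region, and Tgfbr3 had 1 of each. Only 1 of these, an Etv4 region of Tgfbr2, was inside the gene. Of the activin and BMP receptors, Bmpr1b had 4 and 0, Acvr1 2 and 1, Bmpr1a 0 and 1, and Acvr1b, Acvr2a, Acvr2b and Bmpr2 none. Ltbp1, which encodes a binding protein of latent TGF-β, had 13 and 5. Smad3 and Smurf2 had equal Etv4 counts in the window, but all 8 of Smad3 were inside the gene and 0 of those of Smurf2 were. Pmepa1, Smad7 and Ltbp1 had more Etv4 regions than Smad3, both in the window and inside the gene (26, 9 and 12). These counts are not adjusted for gene length, which is 52.1, 28.4 and 387 kb, respectively, compared with 111 kb for Smad3.

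**Figure D5:**
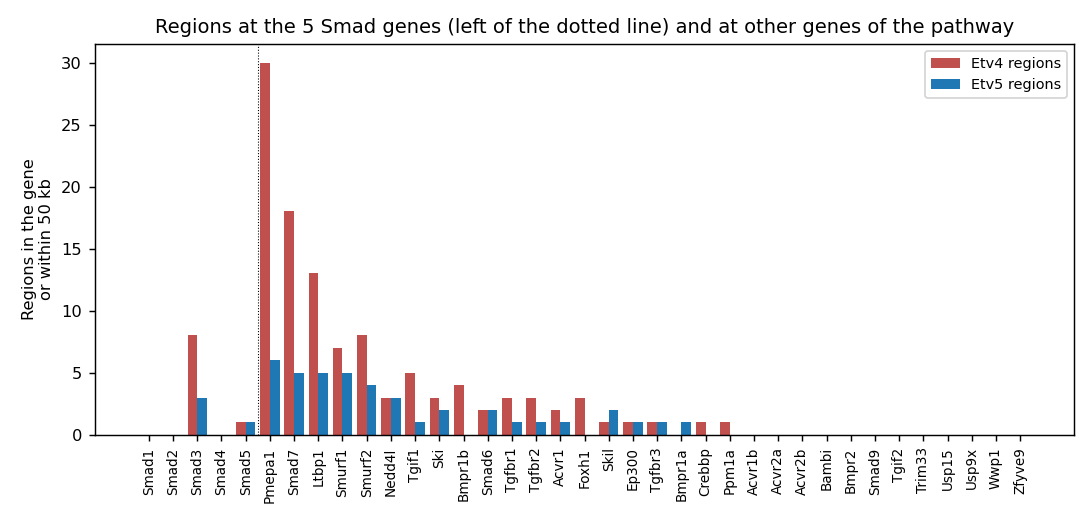
Number of Etv4 regions (red bars) and Etv5 regions (blue bars) inside the gene or within 50 kb for the 5 Smad genes, left of the dotted line, and for 32 other genes of the pathway in order of their total. Smad3 with 8 and 3 is the highest of the 5 Smad genes, and Pmepa1 with 30 and 6 is the highest of the others.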

How the data were processed

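Etv4 and Etv5 ChIP-seq regions of TGF-β-treated EpRas cells were analysed, with samples grouped by the antibody in the labels. According to the methods, the authors called peaks by CisGenome in its one-sample mode (300 bp window, p threshold of 0.1), without a control library, so local mappability, copy number and open chromatin are not removed. The labels name Bowtie and mm10. The deposited lists hold positions, a region number and a BED score of 1000 for every region, with no read counts, so the depth is unknown and cannot be compared. End positions may be inclusive, so lengths are uncertain by 1 bp. Gene models were GENCODE vM21 and sequence was GRCm38.p6. Overlap meant at least 1 bp in common. The named genes were the 5 Smads, their neighbours and 32 pathway genes; the genes and lists were chosen with earlier results of these data known. A sequence was to be printed where a region overlapped the other list, spanned a gene start or held an ETS match. Functions were tested on simulated data. Alternatives varied the window, list, overlap, start distance and patterns. Python 3.11.15 with numpy 2.4.6, scipy 1.17.1 and numba 0.67.0 was used.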

Additional observations from a re-analysis of the deposited data

How the results depend on the processing

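Of 48 alternative values, 33 differed by at most 1.5 times from the reported count. With each list cut to its first 50% of region numbers, there remained 5 Etv4 and 1 Etv5 regions in the windows and 1 overlapping region of each list; at Smad3 these were 4 Etv4 and 0 Etv5 regions, and the Etv5 region was that of Smad5. The Etv5 count in the windows was 2 with a window of 20 kb or with the gene body alone and 1 with the longer 50% of the list, again that of Smad5. Near transcript starts, 3 Etv4 regions were counted at 5 kb and 0 at the annotated gene start alone. The Etv5 count was 0 at both of these settings. In windows of 200 bp, 0 Etv4 regions held the ETS and 2 the AP-1 pattern, while 1 Etv5 region held each. Shares of all genes or of the whole lists were not counted at these settings, so these counts have no background beside them. The strict ETS pattern (CCGGAAGT) was in 1 Etv4 and 0 Etv5 regions, and in 3.45 and 2.17% of the lists. The loose one (GGAA with A or C before it and A or G after it) was in 7 of 9 and 4 of 4, but also in 81.5 and 79.1% of the lists and 73.4% of windows over the assembly. No paired analysis was possible because there was a single library per antibody, and for the same reason no replicate could be left out. The unknown depth limits every statement on genes without regions.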
